A study of Rattus norvegicus with 30 samples.

Results

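Transcripts of 3 systems that set vessel tone and growth signals, angiotensin, endothelin and nitric oxide, were followed in rat heart after a single dose of isoproterenol, a synthetic agonist of beta-adrenergic receptors, or of vehicle. The members were all probe sets that the array's annotation table names Agt, Ace, Agtr1a, Edn1, Ednra, Ednrb, Ece1 or Nos3. This gave 8 probe sets for 6 of the 8 genes, of 14217 genes and 31042 probe sets that are not controls. Ace (a brighter one, 1387791_at, and a dimmer one, 1370028_at) and Agtr1a (a brighter one, 1384240_at, and a dimmer one, 1369291_at) had 2 probe sets each, while Agt (1387811_at), Edn1 (1369519_at), Ece1 (1367801_at) and Nos3 (1371166_at) had 1. The table pairs no probe set with Ednra or Ednrb, the endothelin receptors, which were not analysed here.

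RNA from hearts of male Crl:Wi(Han) rats, an outbred Wistar Han stock, was hybridised to RAT230_2 arrays, which carry 1 colour and several short probes for each probe set. The isoproterenol groups had 5, 4, 4 and 5 arrays at 1, 3, 24 and 72 h, at a dose labelled 0.5 with the unit mg/kg/ml, and each time had its own vehicle group of 3 arrays with a dose labelled 0. The design text gives 48 h for the last time, and the labels, which give 72 h, were followed. The labels name no genetic change, age or heart chamber. They call the arrays of a group biological replicates without saying whether each came from its own animal. If some shared one, part of the spread behind the p-values is technical.

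Values are log2(intensity + 16) after quantile normalization, and a change is the isoproterenol mean minus the vehicle mean of the same time. A probe set counted as called where limma's moderated test had a Benjamini-Hochberg adjusted p under 0.05 over the 23582 probe sets tested. All 8 member probe sets passed the filter on dim probe sets. A level of 5.31, the filter's limit, was reached on all 30 arrays by Ece1, Nos3, Edn1 and the brighter Ace probe set, on 29 by the brighter Agtr1a probe set, on 21 by the dimmer Ace probe set, on 15 by Agt and on 14 by the dimmer Agtr1a probe set. The last 3 are therefore dim, and the added 16 compresses their changes more than those of bright probe sets.

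Deposited medians ran between 21.2 and 70.3 over the 30 arrays, and arrays of 1 group correlated at 0.932 to 0.984. Summed cardiomyocyte markers (10 of 11 tested, none listed at 0) lay between 16.03 and 16.39 in log2 on every array, so markers of the labelled tissue were present throughout. Array numbers ran from 33 to 62 for isoproterenol hearts and from 4 to 21 for vehicle hearts, so the effects of array order and of the drug cannot be told apart. A pair of arrays stood apart. Replicate 1 of isoproterenol at 72 h had a mean correlation of 0.947 with its own group and of 0.961 with the vehicle arrays of that time, and replicate 3 of isoproterenol at 24 h had 0.957 and 0.962. Changes of members and counts of pathway genes at 24 and 72 h are given with and without these arrays. Both were picked for their likeness to vehicle arrays, so leaving them out favours larger changes.

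Angiotensinogen, the product of Agt, is processed in steps, the last by angiotensin-converting enzyme, the product of Ace, to give angiotensin II, which acts on the type 1 receptor encoded by Agtr1a to constrict vessels and to promote growth of fibroblasts and cardiac muscle cells. Edn1 encodes the precursor of endothelin-1, a vasoconstrictor released by endothelium that the endothelin-converting enzyme Ece1 makes active. Nos3, the endothelial nitric oxide synthase, makes nitric oxide from arginine, which relaxes vessels by raising cyclic GMP in smooth muscle.

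Promoter windows of the called genes Ace, Agtr1a and Nos3 are shown, with that of Edn1, which was not called at any time, for comparison. Each window runs from 250 bases before to 50 bases after an annotated transcript start in RefSeq on GRCr8, which listed a window for 7 of the 8 genes. Capitals mark letters of the TATA box (TATAAA) or of TGACG, the shorter core of the cAMP response element, on either strand.
Ace chr10:91409879-91410178 (+ strand): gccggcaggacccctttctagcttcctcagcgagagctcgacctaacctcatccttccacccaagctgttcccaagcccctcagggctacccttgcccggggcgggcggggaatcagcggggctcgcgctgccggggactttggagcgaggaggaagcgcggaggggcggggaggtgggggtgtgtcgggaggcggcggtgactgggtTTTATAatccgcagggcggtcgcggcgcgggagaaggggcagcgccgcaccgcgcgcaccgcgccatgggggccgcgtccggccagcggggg
Agtr1a chr17:34435383-34435682 (- strand): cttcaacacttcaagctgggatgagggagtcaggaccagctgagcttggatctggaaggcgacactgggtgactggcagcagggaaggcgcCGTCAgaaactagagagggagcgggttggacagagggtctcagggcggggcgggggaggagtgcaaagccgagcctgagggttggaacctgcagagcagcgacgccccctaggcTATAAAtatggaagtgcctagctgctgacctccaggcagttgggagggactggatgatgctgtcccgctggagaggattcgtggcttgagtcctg
Nos3 chr4:11706532-11706831 (- strand): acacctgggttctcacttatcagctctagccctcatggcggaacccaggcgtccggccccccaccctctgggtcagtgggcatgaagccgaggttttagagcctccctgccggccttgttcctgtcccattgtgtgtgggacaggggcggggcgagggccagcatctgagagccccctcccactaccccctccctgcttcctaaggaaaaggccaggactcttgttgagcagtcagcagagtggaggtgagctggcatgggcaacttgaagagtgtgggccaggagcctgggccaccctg
Edn1 chr17:22666638-22666937 (- strand): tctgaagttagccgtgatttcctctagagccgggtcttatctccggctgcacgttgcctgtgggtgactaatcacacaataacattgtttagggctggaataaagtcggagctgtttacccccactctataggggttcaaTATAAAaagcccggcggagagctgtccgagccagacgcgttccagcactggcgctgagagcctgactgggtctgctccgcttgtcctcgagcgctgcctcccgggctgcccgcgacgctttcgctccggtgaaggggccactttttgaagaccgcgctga

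The full cAMP response element (TGACGTCA), to which factors activated by beta-adrenergic signalling bind, had no match in these 4 windows on either strand, and 1.83% of 33469 windows of 300 bases held it. The AP-1 motif (TGANTCA) had no match either, against 7.33% of all windows. The shorter core, which also lies inside the full element, was matched in Agtr1a alone of the 4, on the opposite strand with its first letter at -159 from the start, and 21.2% of all windows held it. The TATA box was matched in Agtr1a at -45, in Edn1 at -110 and in Ace at -42 on the opposite strand, and not in Nos3, against 14.2% of all windows. A match of letters is a description and does not show a binding site, and the lack of one says only that these letters are not in this window.

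Among the members, transcripts of Ace were higher 3 and 24 h after isoproterenol, Nos3 was higher at 3 h by a narrow margin, and Agtr1a was higher at 72 h by 1 of its 2 probe sets. No member was called lower at any time. Agt, Edn1 and Ece1 were called at none of the 4 times. The number of member probe sets called was 0 of 8 at 1 h, 3 at 3 h, 2 at 24 h and 1 at 72 h, all higher. Of all probe sets tested, 2.75%, 11.8%, 13.5% and 18.6% were called at these times, and 1.91%, 6.33%, 7.56% and 9.72% were called higher. At 1 h, 2 members, Ece1 and Nos3, had an unadjusted limma p under 0.05, ranking 2799 and 2552 of the 23582 probe sets. Counts at an unadjusted p, here and below, have no share of all probe sets beside them. The median change of the members was 0.03, 0.64, -0.06 and 0.03, where that of all probe sets was -0.03, -0.05, -0.03 and -0.05.

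**Figure D1:**
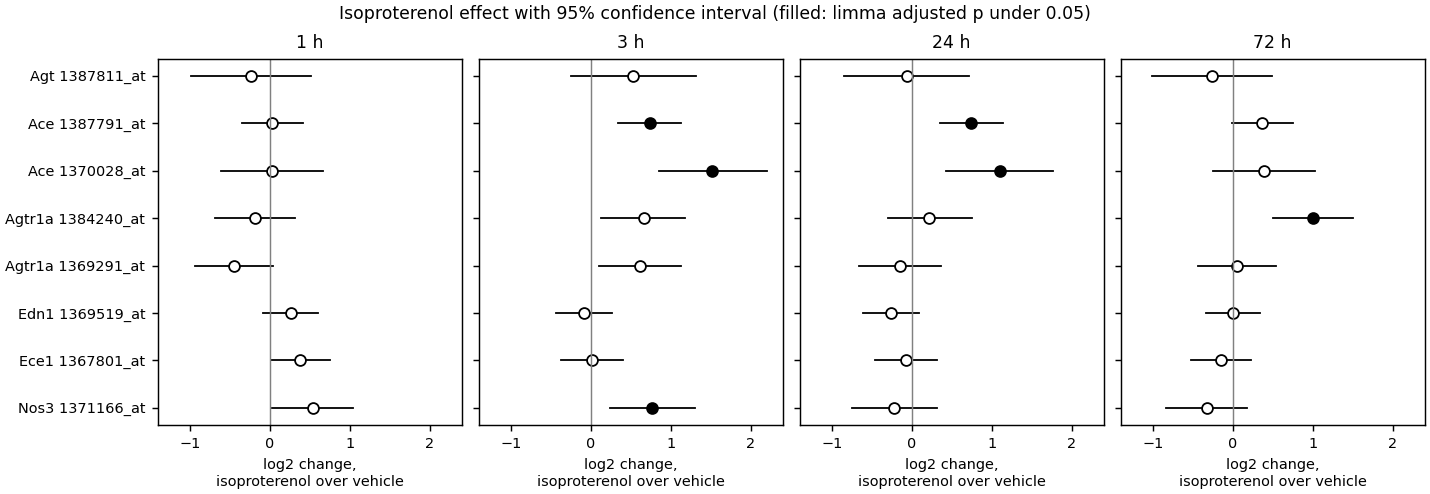
Changes of the 8 member probe sets at each time (x axis, log2 change, isoproterenol over vehicle), with 95% confidence intervals as lines. Filled circles mark limma adjusted p under 0.05, which were both probe sets of Ace at 3 and 24 h, Nos3 at 3 h and the brighter Agtr1a probe set at 72 h.

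Agt encodes angiotensinogen, the precursor of all angiotensins. Its levels lay between 4.37 and 6.18 on isoproterenol arrays and between 4.50 and 6.16 on vehicle arrays over all times. At 3 h they were 6.18, 4.37, 5.81 and 5.22 in isoproterenol hearts, against 4.54, 5.15 and 4.90 in vehicle hearts. The groups overlapped there, since the lowest array of the time was an isoproterenol one. The change was 0.53 ± 0.38 (standard error, here and below) at 3 h, with a 95% interval of -0.25 to 1.32, and -0.24 ± 0.37, -0.06 ± 0.38 and -0.26 ± 0.37 at 1, 24 and 72 h. Adjusted p ran from 0.4178 to 0.9475 by limma, and over the 4 times the intervals reached from -1.01 to 1.32. Without replicate 3 of isoproterenol at 24 h the change at that time was 0.15, also not called (adjusted p = 0.861), and without replicate 1 of isoproterenol at 72 h that change was -0.31 (adjusted p = 0.628).

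Edn1 encodes the endothelin-1 precursor. At 1 h its levels were 5.84, 5.71, 6.25, 5.80 and 5.77 in isoproterenol hearts, against 5.94, 5.52 and 5.39 in vehicle hearts. At 24 h they were 5.56, 5.35, 5.50 and 5.52 in isoproterenol hearts, against 5.72, 5.86 and 5.66 in vehicle hearts. All 4 isoproterenol arrays lay below all vehicle arrays at 24 h, yet the change of -0.26 ± 0.17 was not called (interval -0.61 to 0.09, limma adjusted p = 0.3706). The changes were 0.26 ± 0.17 at 1 h, -0.09 ± 0.17 at 3 h and 0.00 ± 0.17 at 72 h, the last with an interval of -0.34 to 0.34. Without the arrays that stood apart, the changes at 24 and 72 h were -0.27 and 0.01, neither called.

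Groups that do not overlap were common here. At 1, 3, 24 and 72 h, 14.4%, 17.8%, 22.3% and 17.1% of all probe sets tested had isoproterenol and vehicle arrays that did not overlap, against 0, 3, 3 and 0 of the 8 member probe sets. Those members were both probe sets of Ace at 3 and 24 h and the dimmer Agtr1a probe set at 3 h, with isoproterenol higher, and Edn1 at 24 h, with isoproterenol lower.

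**Figure D2:**
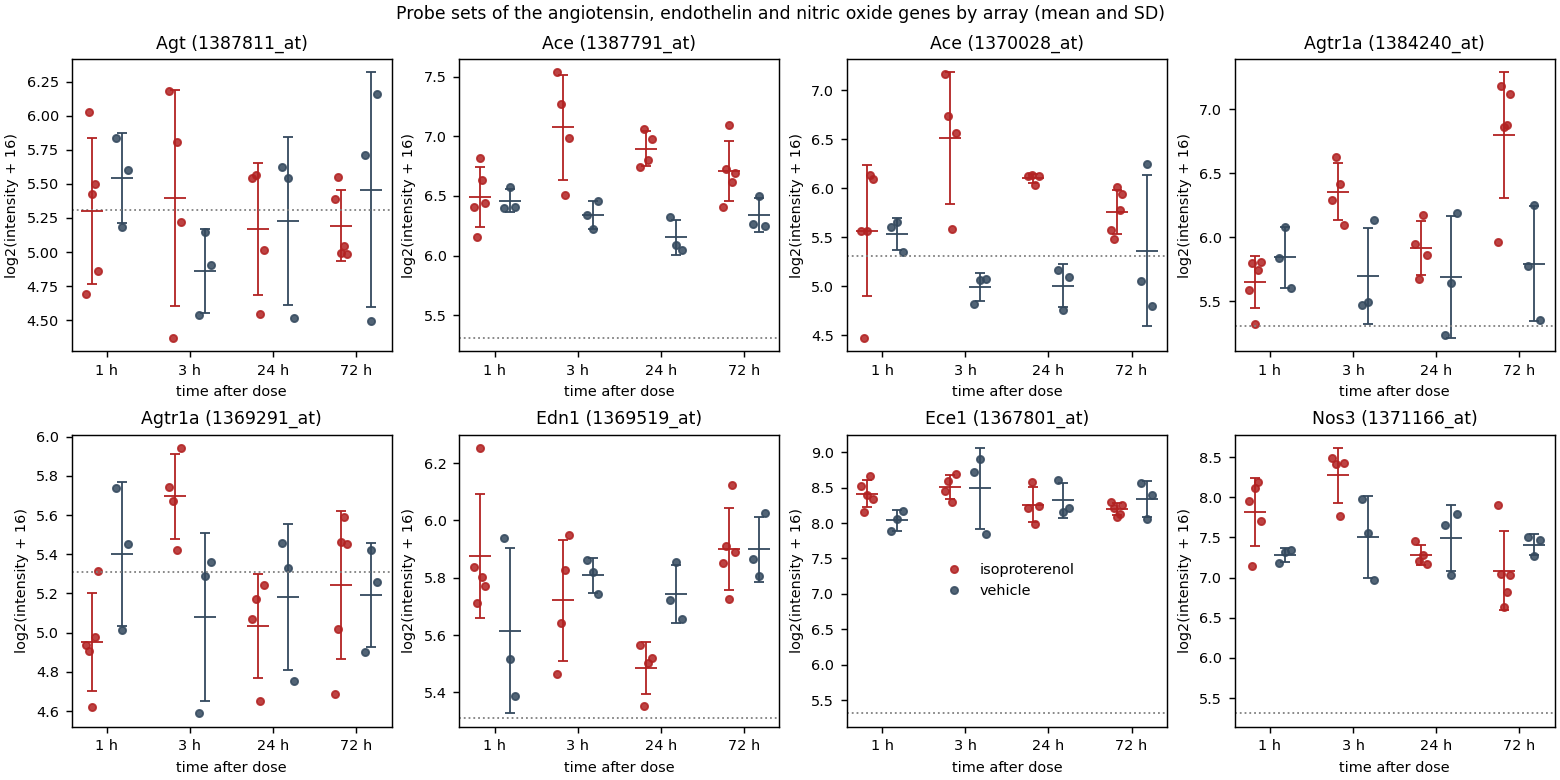
Levels of each member probe set by array (y axis, log2(intensity + 16)) at each time after the dose (x axis), with isoproterenol left of vehicle in each pair. Points are arrays, bars are means with SD, and the dotted line is the filter's limit of 5.31. Isoproterenol arrays lie above vehicle arrays for both Ace probe sets at 3 and 24 h.

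Ace, whose enzyme makes angiotensin II and breaks down the vasodilator bradykinin, was the member with the most calls. At 3 h the brighter probe set read 7.54, 7.27, 6.51 and 6.98 in isoproterenol hearts, against 6.34, 6.22 and 6.46 in vehicle hearts. The dimmer one read 7.16, 6.74, 5.58 and 6.56 in isoproterenol hearts, against 4.82, 5.07 and 5.07 in vehicle hearts. Every isoproterenol array lay above every vehicle array on both probe sets, and replicate 3 was the lowest of its group on each. The brighter probe set rose by 0.74 ± 0.20 (1.67-fold, limma adjusted p = 0.01117, n = 4 and 3) and the dimmer one by 1.52 ± 0.33 (2.88-fold, limma adjusted p = 0.001816). None of the vehicle arrays at 3 h reached the filter's limit on the dimmer one, so its fold depends on values near the bottom of the scale.

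The rise of Ace was also called at 24 h. The brighter probe set read 6.74, 7.06, 6.80 and 6.98 in isoproterenol hearts, against 6.32, 6.09 and 6.05 in vehicle hearts. The dimmer one read 6.12, 6.13, 6.03 and 6.12 in isoproterenol hearts, against 5.17, 4.75 and 5.09 in vehicle hearts. Again no array of one group reached into the other, and the 4 isoproterenol arrays of the dimmer one lay close together. The changes were 0.74 ± 0.20 (1.67-fold, limma adjusted p = 0.009915) and 1.10 ± 0.33 (2.14-fold, limma adjusted p = 0.02357). None of the vehicle arrays at 24 h reached the filter's limit on the dimmer one either. Without replicate 3 of isoproterenol, which stood apart at 24 h, they were 0.78 (adjusted p = 0.00878) and 1.12 (adjusted p = 0.0258).

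At 1 h both Ace probe sets changed by 0.03 (standard errors 0.19 and 0.31, limma adjusted p = 0.9703 and 0.9843). At 72 h their levels lay between 6.41 and 7.10 in isoproterenol hearts and between 6.25 and 6.50 in vehicle hearts on the brighter probe set. The 72 h changes of 0.37 ± 0.19 and 0.39 ± 0.31 were not called (limma adjusted p = 0.1786 and 0.4354). Without replicate 1 of isoproterenol at 72 h they were 0.44 on each, still not called (adjusted p = 0.0954 and 0.384). The probe sets of Ace correlated at r = 0.87 over the 30 arrays, which share the groups and the normalization.

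The calls on Ace depended on single arrays to different degrees. At 3 h, the dimmer one kept its call with each of the 30 arrays left out in turn (1.32 to 1.84), while the brighter probe set lost it without replicate 2 of vehicle (0.68, adjusted p = 0.0558) or replicate 1 of isoproterenol (0.58, adjusted p = 0.0502). At 24 h, the brighter probe set lost it without replicate 3 of vehicle (0.69, adjusted p = 0.0528). At 24 h, the dimmer one lost it without replicate 2 or 3 of vehicle (0.98 and 1.15, adjusted p = 0.102 and 0.0586) and without replicate 2 or 4 of isoproterenol (1.08 on each, adjusted p = 0.0636 and 0.0537). Without normalization neither probe set was called at 3 h (0.47 and 1.20, adjusted p = 0.644 and 0.0518), and the brighter probe set was not called at 3 h in a fit of the arrays of that time alone (0.74, adjusted p = 0.128).

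Some cell type markers, and the actin measure of RNA length but hardly that of GAPDH, differed between groups at the times of the Ace calls. Endothelium carries much of the Ace of the heart, and summed endothelial markers (16 of 18 tested, none listed at 0) lay between 12.88 and 13.06 in isoproterenol hearts at 3 h and between 12.87 and 12.99 in vehicle hearts, with 2 markers higher and 3 lower. At 24 h these sums were 12.60 to 12.76 in isoproterenol hearts and 12.87 to 12.99 in vehicle hearts, with 1 marker higher and 1 lower. Monocyte and macrophage markers (13 of 13 tested, none listed at 0) summed to 11.98 to 13.29 in isoproterenol hearts at 24 h and to 10.75 to 11.39 in vehicle hearts, and 9 of 13 rose. The part of these markers in the Ace result was not tested. The log2 difference between the 3' and 5' actin control probe sets, a measure of RNA and cRNA length, averaged 1.91 ± 0.134 in isoproterenol hearts and 1.28 ± 0.599 in vehicle hearts at 3 h, and 1.06 ± 0.209 and 1.70 ± 0.230 at 24 h (SD, n = 4 and 3 each time). The actin ranges overlapped at 3 h (1.75 to 2.07 against 0.84 to 1.96). The same difference for GAPDH averaged 0.41 ± 0.0695 in isoproterenol hearts and 0.37 ± 0.085 in vehicle hearts at 3 h (SD). At 24 h it averaged 0.42 ± 0.0755 and 0.35 ± 0.0252, the opposite direction to actin. The part of RNA quality in the Ace result was not tested. At 3 h neutrophil markers (5 of 8 tested, none listed at 0) summed to 8.40 to 9.11 in isoproterenol hearts and 6.01 to 6.89 in vehicle hearts, and 3 of 5 rose. Their part in the 3 h results of Ace and Nos3 was not tested. Beside these marker counts, 13.6% of all 12235 genes tested were called at 3 h and 17.6% at 24 h, in either direction. In whole tissue, fewer cells of a type and less RNA per cell cannot be told apart.

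Ece1 encodes the endothelin-converting enzyme. At 1 h its levels were 8.53, 8.15, 8.40, 8.66 and 8.34 in isoproterenol hearts, against 7.88, 8.06 and 8.17 in vehicle hearts. A single vehicle array reached into the isoproterenol range at 1 h. The change was 0.38 ± 0.18 (interval 0.01 to 0.75, limma adjusted p = 0.3807, unadjusted p = 0.0452). At 3, 24 and 72 h the changes were 0.02 ± 0.19, -0.07 ± 0.19 and -0.15 ± 0.18, and their intervals stayed within -0.52 and 0.40. Without replicate 3 of isoproterenol at 24 h that change was 0.02 (adjusted p = 0.961). At 72 h the isoproterenol arrays lay between 8.08 and 8.29, inside the vehicle range of 8.06 to 8.57. Without replicate 1 of isoproterenol the 72 h change was -0.17 (adjusted p = 0.586).

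Agtr1a, the type 1 angiotensin receptor, was higher at 72 h on its brighter probe set only. There it read 5.96, 7.18, 6.86, 6.88 and 7.12 in isoproterenol hearts, against 5.78, 6.25 and 5.35 in vehicle hearts. Replicates 2 to 5 of isoproterenol lay above all vehicle arrays, and replicate 1, the array that stood apart, lay among them. The change was 1.00 ± 0.25 (2.00-fold, interval 0.50 to 1.51, limma adjusted p = 0.004481, n = 5 and 3). Without replicate 1 of isoproterenol it was 1.21 (adjusted p = 0.000171), and without replicate 3 of vehicle it was 0.79 and no longer called (adjusted p = 0.0657).

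The dimmer probe set did not show this difference. It read 4.69, 5.02, 5.46, 5.59 and 5.45 in isoproterenol hearts at 72 h, against 4.90, 5.42 and 5.26 in vehicle hearts. The groups overlapped, and the change was 0.05 ± 0.24 (interval -0.44 to 0.54, limma adjusted p = 0.9205). Without replicate 1 of isoproterenol it was 0.19 (adjusted p = 0.644). The probe sets correlated at r = 0.30 over the 30 arrays. The mean of both changed by 0.53 and missed the threshold (adjusted p = 0.0525). The dimmer one was at or above the filter's limit on 14 arrays only, and rats carry a closely related receptor gene, Agtr1b. Whether either probe set also reads Agtr1b was not tested.

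At 3 h both Agtr1a probe sets had positive changes that were not called. The brighter probe set read 6.29, 6.63, 6.41 and 6.10 in isoproterenol hearts, against 5.48, 5.50 and 6.13 in vehicle hearts. The dimmer one read 5.75, 5.67, 5.42 and 5.94 in isoproterenol hearts, against 4.59, 5.29 and 5.36 in vehicle hearts. On the brighter probe set replicate 3 of vehicle lay just above the lowest isoproterenol array, and on the dimmer one the groups did not overlap. The changes were 0.66 ± 0.26 (limma adjusted p = 0.09779) and 0.61 ± 0.25 (limma adjusted p = 0.1171). Without replicate 3 of vehicle, the brighter probe set changed by 0.88 and passed (adjusted p = 0.0385). With all arrays, the mean of both probe sets also passed (0.64, adjusted p = 0.0354), as did each of them with array weights (0.77 and 0.82, adjusted p = 0.0443 and 0.0442). At 1 and 24 h, the brighter probe set changed by -0.19 ± 0.25 and 0.22 ± 0.26, and the dimmer one by -0.45 ± 0.24 and -0.15 ± 0.25, none of them called. Without replicate 3 of isoproterenol at 24 h the changes at that time were 0.14 and -0.02.

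Fibroblasts are a known site of the type 1 receptor in the heart, and their markers were higher at 72 h, as was the brighter Agtr1a probe set. Summed fibroblast markers (10 of 10 tested, none listed at 0) were 14.53, 15.75, 15.86, 15.61 and 15.59 in isoproterenol hearts at 72 h, against 13.89, 14.37 and 13.90 in vehicle hearts. Replicate 1 of isoproterenol was the lowest of its group on both measures. At that time 8 of 10 fibroblast markers rose and none fell, and 9 rose without that array. Of these markers, Postn, a matrix protein of activated fibroblasts, rose by 5.23 ± 0.54 and the collagen chain gene Col1a2 by 2.19 ± 0.31 (limma adjusted p = 9.34e-07 and 1.41e-05), both picked as examples after their values were seen. Smooth muscle and mural markers, of cells that also carry this receptor, summed to 13.32 to 13.66 in isoproterenol hearts at 72 h and 13.16 to 13.25 in vehicle hearts. Of these 12 markers, 5 rose and 1 fell. Of the monocyte and macrophage markers, 12 of 13 rose at that time. At 3 h, where both Agtr1a probe sets had positive changes that were not called, summed fibroblast markers were 13.42 to 13.99 in isoproterenol hearts. In vehicle hearts they were 13.90 to 14.20, and 1 of 10 markers was called higher and none lower. Beside these marker counts, 13.6% of all 12235 genes tested were called at 3 h and 22.6% at 72 h, in either direction. The part of these cell types in the Agtr1a results was not tested.

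**Figure D3:**
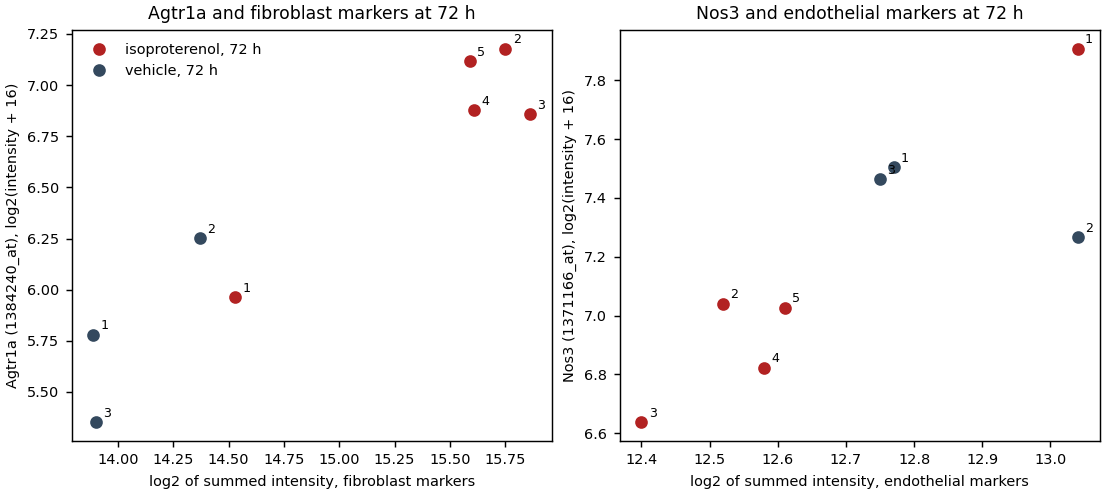
Levels at 72 h (y axes, log2(intensity + 16)) of Agtr1a (brighter probe set) against the log2 of summed fibroblast marker intensity (left x axis) and of Nos3 against that of endothelial markers (right x axis), with replicate numbers beside the points. Isoproterenol replicates 2 to 5 lie apart from the vehicle arrays in both panels, and isoproterenol replicate 1 lies near the vehicle arrays for Agtr1a and has the highest Nos3 level, 7.91.

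Nos3, the endothelial nitric oxide synthase, was higher at 3 h. It read 8.49, 8.41, 7.76 and 8.43 in isoproterenol hearts, against 7.98, 7.56 and 6.97 in vehicle hearts. Isoproterenol replicates 1, 2 and 4 lay above all vehicle arrays, and replicate 3 lay between vehicle replicates 1 and 2. The change of 0.77 ± 0.26 (1.70-fold, interval 0.24 to 1.30, n = 4 and 3) passed at a limma adjusted p of 0.04999. This call was lost with 24 of the 30 arrays left out singly (0.50 to 0.80, adjusted p 0.0502 to 0.257), the smallest of these changes without replicate 3 of vehicle, and in 8 of 13 other alternatives (0.54 to 0.83, adjusted p 0.0529 to 0.599). The sign of the change was kept in all of them.

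At 1 h Nos3 read 7.95, 7.14, 8.12, 8.18 and 7.70 in isoproterenol hearts, against 7.18, 7.32 and 7.34 in vehicle hearts. All but replicate 2 of isoproterenol lay above the vehicle arrays, and the change of 0.54 ± 0.25 was not called (limma adjusted p = 0.3582, unadjusted p = 0.0388). At 24 and 72 h the changes were -0.22 ± 0.26 and -0.32 ± 0.25 (limma adjusted p = 0.6621 and 0.4097). At 72 h the levels were 7.91, 7.04, 6.64, 6.82 and 7.03 in isoproterenol hearts, against 7.50, 7.27 and 7.46 in vehicle hearts. Replicate 1 of isoproterenol was the highest array of that time, and the other 4 lay below all vehicle arrays. Without it the change was -0.53 and was not called (adjusted p = 0.0961). Without replicate 3 of isoproterenol the 24 h change was -0.22 (adjusted p = 0.673). Summed endothelial markers at 72 h were 13.04, 12.52, 12.40, 12.58 and 12.61 in isoproterenol hearts, against 12.77, 13.04 and 12.75 in vehicle hearts. Of 16 such markers 2 fell, Tie1 and Erg, and none rose, where 22.6% of all 12235 genes tested were called in either direction. The part of the endothelial markers in the Nos3 values was not tested.

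Whether the effect of isoproterenol differed between successive times was tested directly, and no member probe set was called. For the 3 h effect minus the 1 h effect, 0 of 8 were called and 4 had an unadjusted limma p under 0.05, with 0.602% of all probe sets called. For 24 h minus 3 h these numbers were 0 and 2, with 7.12% of all called, and for 72 h minus 24 h they were 0 and 1, with 2.21%. These shares are at the adjusted threshold and are no background for the counts at unadjusted p. The largest unadjusted limma p under 0.05 of a member was 0.0239, 0.0414 and 0.0367 for these differences in turn. Among 23582 probe sets these ranked 1823, 4877 and 2850. The lowest adjusted p was 0.09884, for Nos3 at 24 h minus 3 h (-0.99 ± 0.37, interval -1.74 to -0.24). The dimmer Ace probe set had 1.49 ± 0.46 for 3 h minus 1 h (adjusted p = 0.1281), and the brighter Agtr1a probe set had 0.78 ± 0.36 for 72 h minus 24 h (adjusted p = 0.3041). The calls at single times therefore do not show that the effects differed between times.

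Among vehicle hearts no difference between sampling times was called for a member. In limma's F test among the 4 vehicle groups 0 of 8 member probe sets were called and 0 had an unadjusted p under 0.05, against 0.0848% of all probe sets called. The means of the vehicle groups spanned 0.15 and 0.32 for the brighter and dimmer Agtr1a probe sets, 0.22 for Nos3 and 0.28 for Edn1. They spanned 0.31 and 0.55 for the brighter and dimmer Ace probe sets, 0.45 for Ece1 and 0.68 for Agt. On the dimmer Ace probe set the vehicle means were 4.99 and 5.00 at 3 and 24 h, where it was called. At 1 and 72 h they were 5.53 and 5.36. For Ece1 the vehicle mean at 1 h, 8.04, was the lowest of its group means. Groups of 3 limit what this comparison can show.

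The order of the 8 group means was alike for both Ace probe sets at its upper end, with isoproterenol at 3, 24, 72 and 1 h above all vehicle groups (7.08, 6.90, 6.71 and 6.49 on the brighter probe set, with vehicle groups between 6.15 and 6.46). For the brighter Agtr1a probe set the order was isoproterenol at 72 h (6.80), 3 h (6.36) and 24 h (5.92), then the vehicle groups (5.69 to 5.84) and isoproterenol at 1 h (5.65). For Nos3 isoproterenol at 3 h (8.27) and 1 h (7.82) came first and isoproterenol at 72 h (7.09) last. Most neighbours in these orders did not differ beyond their spread. Of 56 neighbouring pairs over the 8 probe sets, 6 had a gap above the larger of their SDs. Among them were isoproterenol at 3 h over 24 h for the brighter Agtr1a probe set (gap 0.44), at 24 h over 72 h for the dimmer Ace probe set (gap 0.35) and at 3 h over 1 h for Nos3 (gap 0.45). The others lay between vehicle groups, at 3 h over 24 h for the brighter Ace probe set (gap 0.19) and at 72 h over 1 h for Nos3 (gap 0.13), or set isoproterenol at 72 h over vehicle at 1 h for Ece1 (gap 0.16). Such a gap is a description and not a test. Agt, Edn1 and the dimmer Agtr1a probe set had no such gap.

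The genes whose levels followed each member most closely over the 30 arrays were taken from 12235 genes by Pearson r, as a description, since the arrays share groups and normalization. Nos3 was closest to Tinagl1 (0.812), Tent5c (0.797) and Aqp1 (0.785). The brighter Agtr1a probe set was closest to Thbs2 (0.801), Spats2l (0.792) and Parp14 (0.791), and the brighter Ace probe set to Pmepa1 (0.793), Tsc22d1 (0.784) and Rrp12 (0.771). Ece1 was closest to Phlda1 (0.784), Prrc2a (0.767) and Psmd3 (0.729). Agt and Edn1 had lower values, for Hcrt (0.681), Srsf7 (0.587) and Vdr (0.558), and for Cntfr (0.649), Xpa (0.603) and Efnb1 (0.594).

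Genes around the members were counted in lists of their pathways, with the brightest probe set standing for each gene. Of the 12235 genes tested, 3.51%, 13.6%, 17.6% and 22.6% were called at 1, 3, 24 and 72 h. Across the 5 pathway lists 49 pairs of gene and time were called. None of them changed sign in the alternatives tried, and 13 kept their call in every one. The setting that ended the most calls was no normalization (25 of the 49), followed by a fit of only the arrays compared (15), median centring (11) and the mean of a gene's probe sets (8). Without the array that stood apart at each time, all 31 pairs at 24 and 72 h kept their call (adjusted p at most 0.0305), and no change differed from that with all arrays by more than 1.29 times. The median change of all genes was -0.03, -0.06, -0.01 and 0.00 at 1, 3, 24 and 72 h.

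In the angiotensin list 0, 2, 4 and 4 of 15 genes were called at the 4 times, against 3.51%, 13.6%, 17.6% and 22.6% of all genes. Anpep, aminopeptidase N, which is also borne by myeloid cells, rose by 1.82 ± 0.27 at 24 h and 1.54 ± 0.26 at 72 h (limma adjusted p = 5.57e-05 and 0.000116). Prcp, the carboxypeptidase that cleaves angiotensin II, rose by 2.25 ± 0.46 at 72 h (limma adjusted p = 0.00082). Nln, an oligopeptidase, rose by 0.73 ± 0.22 and Enpep, aminopeptidase A, fell by 0.88 ± 0.25 at 24 h. Atp6ap2, an accessory protein of the vacuolar proton pump, rose by 0.70 ± 0.18 at 72 h, and Agtrap, which binds the type 1 receptor and promotes its uptake, fell by 0.71 ± 0.23 at 3 h. With Ace and Agtr1a counted, 0, 1, 3 and 4 of 15 tested genes rose and 0, 1, 1 and 0 fell at the 4 times, and at 1 h none had an unadjusted limma p under 0.05. The list's median change was -0.04, -0.15, 0.22 and 0.13.

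The late counts of this list were 5 higher and 1 lower at 24 h and 4 higher and 1 lower at 72 h without the array that stood apart at each time. Anpep at both times and Prcp kept their calls in all 43 alternatives. Agtrap lost its call without any 1 of 11 arrays (-0.71 to -0.58) and Enpep without any 1 of 4 (-0.84 to -0.76). With the mean of a gene's probe sets Agtrap and Enpep also lost it (-0.44 and -0.57, limma adjusted p = 0.133 and 0.0505). Enpep also lost it with median centring (-0.76) and without normalization (-0.26, adjusted p = 0.679), and Agtrap without normalization (-0.92, adjusted p = 0.206). Nln lost it without replicate 2 of vehicle or replicate 4 of isoproterenol at 24 h (0.46 to 0.66), and Atp6ap2 without replicate 3 of vehicle at 72 h (0.58). The difference between the 24 h and 3 h effects passed for Anpep (2.26 ± 0.38), Nln (1.36 ± 0.31) and Agtrap (1.13 ± 0.33), with limma adjusted p of 0.000386, 0.00705 and 0.0336. Agtr1b, Mas1 and Ctsg were among the genes not tested. At 72 h, 12 of 13 monocyte and macrophage markers rose, and they summed to 11.64 to 13.48 in isoproterenol hearts and 10.51 to 10.93 in vehicle hearts. Their part in these changes was not tested.

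In the endothelin list none of the 5 genes tested was called by limma at any time, with 1, 1, 1 and 0 of them at an unadjusted p under 0.05 at 1, 3, 24 and 72 h. The list's median change was 0.10, -0.09, -0.18 and 0.00. Edn3 was not tested, like both receptors.

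**Figure D4:**
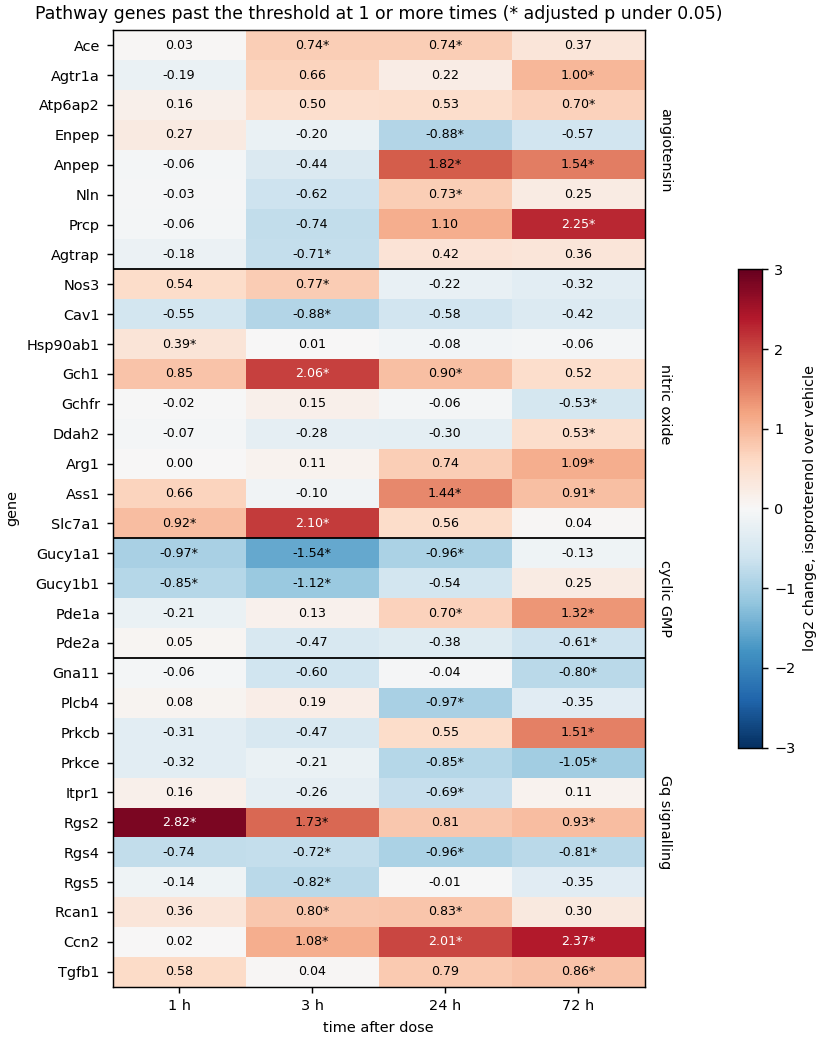
Log2 changes, isoproterenol over vehicle, of the pathway genes called at 1 or more times (rows, grouped by list) at each time after the dose (columns). Asterisks mark limma adjusted p under 0.05. Rgs2 has the largest early rise (2.82 at 1 h) and Ccn2 the largest late one (2.37 at 72 h) among the genes shown.

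In the nitric oxide list 2, 4, 2 and 4 of 20 genes were called at the 4 times, which at 24 and 72 h is a share near or below that of all genes. Slc7a1, which imports arginine, rose by 0.92 ± 0.19 at 1 h and 2.10 ± 0.20 at 3 h (limma adjusted p = 0.00224 and 3.6e-09). Gch1, the first enzyme in the synthesis of the cofactor tetrahydrobiopterin, rose by 2.06 ± 0.28 at 3 h and 0.90 ± 0.28 at 24 h (adjusted p = 4.51e-06 and 0.0317). Cav1, a caveolin that binds the synthase and limits its activity, fell by 0.88 ± 0.20 at 3 h (adjusted p = 0.00369). The chaperone gene Hsp90ab1 rose by 0.39 ± 0.09 at 1 h. Later, Ass1, which remakes arginine from citrulline, rose by 1.44 ± 0.32 at 24 h and 0.91 ± 0.30 at 72 h, and at 72 h Arg1, which breaks arginine down, rose by 1.09 ± 0.34, Ddah2, which removes an inhibitor of the synthase, by 0.53 ± 0.18, and Gchfr, which restrains Gch1, fell by 0.53 ± 0.17. With Nos3 counted, 2, 3, 2 and 3 of 20 tested genes rose and 0, 1, 0 and 1 fell. The list's median change was -0.02, 0.13, 0.00 and 0.02. The part of the monocyte and macrophage markers, which rose at 24 and 72 h, in the late changes was not tested. Neutrophil markers summed to 7.20 to 8.05 in isoproterenol hearts and 5.75 to 6.60 in vehicle hearts at 1 h, with 2 of 5 higher, and were also higher at 3 h as given above. Their part in the early changes was not tested.

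The rise of Slc7a1 differed between times, by 1.18 ± 0.27 for 3 h minus 1 h and by -1.54 ± 0.28 for 24 h minus 3 h (limma adjusted p = 0.0322 and 0.000711), and that of Ass1 by 1.54 ± 0.45 for 24 h minus 3 h (adjusted p = 0.0339). Slc7a1 and Gch1 at 3 h and Ass1 at 24 h kept their calls in all 43 alternatives. With 1 array left out, the call was lost by Gch1 at 24 h for 5 arrays (0.68 to 0.91), by Ass1 at 72 h for 4 (0.54 to 1.04), by Arg1 for 4 (0.96 to 1.04), by Ddah2 for 6 (0.38 to 0.55) and by Gchfr for 5 (-0.51 to -0.46). Hsp90ab1 lost it without replicate 1 or 2 of vehicle at 1 h (0.32 to 0.35). With the mean of a gene's probe sets the changes of Hsp90ab1 and Slc7a1 at 1 h were 0.08 and 0.48, and that of Gch1 at 24 h was 0.41, none of them called. Without normalization Hsp90ab1 and Slc7a1 at 1 h (0.16 and 0.68), Cav1 (-0.94), Ddah2 (1.08) and Gchfr (-0.01) were not called, and with median centring Hsp90ab1 (0.34), Ass1 at 72 h (0.80) and Gchfr (-0.37) were not. Without the arrays that stood apart, 4 genes rose and 2 fell at 24 h, and 3 rose and 3 fell at 72 h. Hsp90aa1, Spr, Arg2 and Slc7a2 were among the genes not tested.

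Downstream of nitric oxide, the alpha-1 and beta-1 subunit genes of soluble guanylate cyclase, the enzyme that nitric oxide activates, fell early. Gucy1a1 fell by 0.97 ± 0.20, 1.54 ± 0.21 and 0.96 ± 0.21 at 1, 3 and 24 h (limma adjusted p = 0.00278, 3.78e-06 and 0.00242). Gucy1b1 fell by 0.85 ± 0.21 and 1.12 ± 0.22 at 1 and 3 h (adjusted p = 0.0177 and 0.000637). Gucy1b2, a further subunit gene, changed by 0.07, 0.08, -0.46 and 0.19 over the 4 times and was not called. The cyclic nucleotide phosphodiesterase gene Pde1a rose by 0.70 ± 0.22 at 24 h and 1.32 ± 0.21 at 72 h (adjusted p = 0.0336 and 7.13e-05), while Pde2a fell by 0.61 ± 0.18 at 72 h (adjusted p = 0.0152). In all, 0, 0, 1 and 1 of 10 tested genes rose and 2, 2, 1 and 1 fell at the 4 times. The shares of all genes called in either direction were 3.51%, 13.6%, 17.6% and 22.6%. The list's median change was -0.11, -0.17, -0.23 and 0.22. Gucy1a1 at 3 h and Pde1a at 72 h kept their calls in all 43 alternatives. At 1 h Gucy1a1 lost its call without replicate 2 of vehicle (-0.83), and Gucy1b1 without replicate 1 or 2 of vehicle or replicate 1 of isoproterenol (-0.83 to -0.76). With the mean of its probe sets Gucy1b1 at 1 h also lost its call (-0.71, limma adjusted p = 0.0597). Pde1a at 24 h lost it without any 1 of 6 arrays (0.65 to 0.72) and Pde2a without any 1 of 3 (-0.62 to -0.51). Pde2a was also not called with median centring (-0.36, adjusted p = 0.244) or without normalization (-0.01, adjusted p = 0.99). Without normalization Gucy1a1 was not called at 1 and 24 h (-1.29 and -0.33, adjusted p = 0.0938 and 0.573), nor Gucy1b1 at 1 and 3 h (-1.15 and -1.28, adjusted p = 0.165 and 0.053). Without the arrays that stood apart, 2 genes rose and 1 fell at both 24 and 72 h. Gucy1a2, Prkg1, Prkg2 and Pde5a were not tested.

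Smooth muscle and mural cells hold much of this cyclase, and their markers (12 of 12 tested, none listed at 0) summed to 13.06 to 13.32 in isoproterenol hearts and 13.02 to 13.14 in vehicle hearts at 1 h, and to 13.04 to 13.26 and 13.16 to 13.25 at 3 h. At 1 h limma called none of the 12, with 3 at an unadjusted p under 0.05, and at 3 h 2 fell, Pdgfrb and Kcnj8. At 24 h the sums were 13.30 to 13.46 in isoproterenol hearts and 13.10 to 13.28 in vehicle hearts, with 1 marker higher and 2 lower, and 4 higher and 2 lower without the array that stood apart. At 72 h they were 13.32 to 13.66 in isoproterenol hearts and 13.16 to 13.25 in vehicle hearts, with 5 higher and 1 lower, and 5 and 2 without that array. Their part in the changes of the cyclic GMP genes was not tested.

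Gq signalling genes act below Agtr1a and Ednra. Rgs2, which shortens Gq signals, rose by 2.82 ± 0.27 at 1 h, 1.73 ± 0.28 at 3 h and 0.93 ± 0.27 at 72 h (limma adjusted p = 7.64e-09, 5.41e-05 and 0.0149). Rgs4, a related regulator, fell by 0.72 ± 0.22, 0.96 ± 0.22 and 0.81 ± 0.21 at 3, 24 and 72 h, and Rgs5 fell by 0.82 ± 0.17 at 3 h. Ccn2, a matricellular protein that angiotensin II and transforming growth factor beta raise, rose by 1.08 ± 0.34, 2.01 ± 0.34 and 2.37 ± 0.32 at 3, 24 and 72 h (adjusted p = 0.0327, 0.000187 and 1.06e-05). Rcan1, an inhibitor of calcineurin, rose by 0.80 ± 0.22 at 3 h and 0.83 ± 0.22 at 24 h.

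At 24 h the phospholipase gene Plcb4 fell by 0.97 ± 0.24, the calcium release channel gene Itpr1 by 0.69 ± 0.19 and the kinase gene Prkce by 0.85 ± 0.27. At 72 h Prkce fell by 1.05 ± 0.26 and the G protein gene Gna11 by 0.80 ± 0.21, while the kinase gene Prkcb, which leukocytes also express, rose by 1.51 ± 0.23 and Tgfb1 by 0.86 ± 0.27. In all, 1, 3, 2 and 4 of 19 tested genes rose and 0, 2, 4 and 3 fell at the 4 times. The shares of all genes called in either direction were 3.51%, 13.6%, 17.6% and 22.6%. The list's median change was -0.06, -0.23, 0.03 and -0.11. The part of the fibroblast and macrophage markers in the late changes was not tested. Rgs2 at 1 and 3 h, Ccn2 at 24 and 72 h and Prkcb kept their calls in all 43 alternatives. The effect differed between 24 and 3 h for Plcb4 (-1.16 ± 0.33) and Rgs5 (0.82 ± 0.24), with limma adjusted p of 0.0303 and 0.0322. Leaving out 1 array lost the call of Ccn2 at 3 h for 5 arrays (0.97 to 1.10), of Rgs4 at 3 h for 5 (-0.77 to -0.59), of Prkce at 24 h for 4 (-0.79 to -0.62) and of Tgfb1 for 5 (0.70 to 0.95). It lost that of Rgs4 at 72 h without replicate 2 of vehicle (-0.59), and of Rgs2 and Gna11 at 72 h without replicate 1 or 3 of vehicle (0.85 to 0.94 and -0.72 to -0.67). Itpr1 and Rcan1 at 24 h lost it without replicate 2 of vehicle or of isoproterenol (-0.61 to -0.48 and 0.55 to 0.68), and Rcan1 at 3 h without replicate 3 of vehicle or 2 of isoproterenol (0.65 to 0.70). The falls also depended on the scaling. Without normalization none of Plcb4, Itpr1, Prkce and Rgs4 at 24 h (-0.35, -0.05, -0.22 and -0.33) or of Prkce, Gna11 and Rgs4 at 72 h (-0.42, -0.29 and -0.18) was called, nor Rgs4 and Rgs5 at 3 h (-0.86 and -0.92). With median centring Rgs4 at 3 and 72 h (-0.65 and -0.54), Rgs5 at 3 h (-0.70) and Itpr1 at 24 h (-0.55) were not called. Rgs4 at 3 h was also not called with the mean of its probe sets (-0.60, limma adjusted p = 0.0684). Among the rises, Rcan1 and Ccn2 at 3 h were not called without normalization (0.82 and 1.14), nor Rcan1 at 24 h with median centring (0.83). Without the arrays that stood apart, 4 genes rose and 4 fell at 24 h, and 4 rose and 3 fell at 72 h.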

How the data were processed

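Gene expression was measured in rat heart RNA on 30 RAT230_2 arrays of 1 colour. Per the labels' protocols, tissue was kept in RNAlater, total RNA was extracted with an RNeasy kit and biotinylated cRNA was made by the Affymetrix protocol. Each deposited value is the intensity of a probe set on a linear scale. The sources used here do not give how the authors summarised or scaled the probes. Depth has no meaning for arrays, and the number of arrays limits the precision.

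Intensities plus 16 were taken to log2 and quantile normalized, which removes a shift shared by most transcripts. The 57 control probe sets were left out, and probe sets at or above the 40th percentile of all values, 5.31 in log2 (an intensity of 23.7), on at least 3 arrays were kept. limma 3.58.1 (R 4.3.3) fitted 8 group means to all 30 arrays (22 residual degrees of freedom, intensity trend), without a block. Two-sided moderated tests were adjusted by Benjamini-Hochberg over the 23582 probe sets, with a threshold of 0.05. The fit alone was run on simulated normalized values with changes planted at 72 h. Normalization, the filter and the naming of probe sets were not tested that way.

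Probe sets were named through the platform annotation, with symbols updated through gene records (20764 by gene number, 2 by accession, 66 kept). Of 31042 probe sets, 20826 carried a single symbol. Another 436 carried several and were left unnamed, and 9780 are not listed in the table used. The brightest probe set stood for a gene. All member probe sets are named at every time. From each of the pathway lists, called genes are named, at most the 4 with the largest change in each direction at each time, and for each member the 3 most alike genes. Marker genes, and Gucy1b2, are named outside this rule, chosen after their values were seen. Members and lists were chosen with earlier results of these data known. There were 13 lists with 177 genes, and 8 of the lists hold cell type markers. Alternatives changed the pseudocount (1 or 64), the filter (none, or the 60th percentile), the normalization, the spread model, array weights, the arrays fitted, the replicate block and the probe set standing for a gene, and left out each array in turn.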

Additional observations from a re-analysis of the deposited data

Results flagged for a closer look

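Of 32 isoproterenol groups of 4 or 5 arrays of the member probe sets, 4 held an array whose gap to the nearest other array was large for the group's range, by Dixon's test. Chance flags about 1 in 20 such groups, and the arrays here share probe sets and normalization.

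The dimmer Ace probe set read 6.03 in replicate 3 of isoproterenol at 24 h, where the other 3 arrays read 6.12 to 6.13. The brighter Agtr1a probe set read 5.96 in replicate 1 of isoproterenol at 72 h, where the other 4 read 6.86 to 7.18. Edn1 read 6.25 in replicate 3 of isoproterenol at 1 h, where the other 4 read 5.71 to 5.84. Nos3 read 7.76 in replicate 3 of isoproterenol at 3 h, where the other 3 read 8.41 to 8.49. The arrays in the Ace and Agtr1a groups are those that also correlated better with vehicle arrays than with their own group.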

How the results depend on the processing

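The counts of probe sets called were 648, 2787, 3179 and 4377 at 1, 3, 24 and 72 h, 142, 1678 and 520 for the differences between successive times, and 20 among vehicle groups. Without normalization they were 190, 478 and 2380 at 1, 3 and 72 h, 5 and 54 for 3 h minus 1 h and 72 h minus 24 h, and 7 among vehicle groups. With array weights they were 1759, 5289 and 7291 at 1, 24 and 72 h, 509, 2995 and 2036 for the differences, and 1273 among vehicle groups. With only the arrays compared they were 1320, 1349, 2110 and 2420, then 248, 1043 and 133 for the differences, and 6 among vehicle groups. Median centring gave 345 for 72 h minus 24 h and 13 among vehicle groups, for which pseudocount 1 gave 36, cyclic loess 9 and no intensity trend 10. Member probe sets called at 3 h numbered 0 without normalization and 1 with only the arrays compared, and 3 at 72 h with array weights. The cause was not tested. The share of calls that were higher was 53.6% at 3 h, 56.1% at 24 h and 52.3% at 72 h, against 67.2%, 68.4% and 76.5% with median centring, 99.5% at 24 h and 98.8% at 72 h without normalization, and 62.3% at 72 h with cyclic loess. Without normalization the median of all probe sets moved to -0.23, -0.19, 0.47 and 0.36.

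No called member changed sign. Uncalled changes that turned were as follows. Ace at 1 h had -0.08 (median centring) and -0.26 (no normalization) on the brighter probe set, and -0.09 (pseudocount 1), -0.14 (no normalization) and -0.13 (block) on the dimmer. Ece1 had -0.10 (no normalization), -0.13 (array weights) and -0.01 (block) at 3 h, 0.06 (median centring) and 0.56 (no normalization) at 24 h, and 0.09 and 0.45 at 72 h. Without normalization at 24 h Agt had 0.28, the dimmer Agtr1a probe set 0.14, Edn1 0.16 and Nos3 0.42, and Nos3 had 0.25 at 72 h. With array weights Agt had 0.11 at 24 h. The dimmer Agtr1a probe set had -0.02 (median centring) and -0.10 (block) at 72 h, and Edn1 -0.02 (block).

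With each array left out in turn the counts ran 392 to 697, 1908 to 3072, 1604 to 4428 and 2437 to 5667 at the 4 times, lowest without vehicle 1 h replicate 3, vehicle 3 h replicate 2, isoproterenol 24 h replicate 2 and vehicle 72 h replicate 3. They ran 67 to 215, 1037 to 2566 and 184 to 1124 for the differences, and 3 to 127 among vehicle groups. Members called ran 0 to 0, 1 to 3, 0 to 2 and 0 to 1. Uncalled changes that turned ran -0.05 to 0.12 and -0.11 to 0.31 (Ace, 1 h), -0.31 to 0.22 and -0.18 to 0.07 (Ece1, 3 and 24 h), -0.42 to 0.15 and -0.75 to 0.09 (Agt, 24 and 72 h), 0.00 to 0.47 (brighter Agtr1a, 24 h), -0.10 to 0.19 (dimmer Agtr1a, 72 h) and -0.05 to 0.07 (Edn1, 72 h).

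With replicate number as a block, Nos3 at 3 h had 0.76 and was not called (adjusted p = 0.0529). The block also ended 9 of the 49 pathway calls, Nos3 included. Deviations of same-numbered arrays correlated at -0.08 to 0.13. The labels do not say whether arrays of the same number share more than that number, and so few arrays cannot settle it. Dim signal limits Agt and the dimmer probe sets of Ace and Agtr1a.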
